A study of Pleurodeles waltl with 10 samples.

Results

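The CELF, RBFOX and NOVA genes encode RNA-binding proteins that regulate splicing, and 10 of them were followed here: CELF1 to CELF5, RBFOX1 to RBFOX3, NOVA1 and NOVA2. They were looked up by name in the table that pairs each transcript of the newt catalogue with a gene name, after all gene names had been put in upper case. All 10 were found, of 16771 gene names in all. The genes were chosen by family with their numbers of transcripts already known, CELF2 having been seen near the top, so these numbers are a description and were not tested. The study sequenced single forebrain cells of the Iberian ribbed newt, Pleurodeles waltl, from larvae at stage 55. Every animal group had received the virus PHP-GFP, at stage 37 (2 gene expression libraries), stage 41 (1 library) or stage 51 (2 libraries), each library having a matching library of multiplexing oligos, and no group without the virus is among the 10 libraries. Expression values of these libraries were not analysed here, so the values below describe the catalogue against which reads are counted. They say how many transcript names were listed for a gene, not how strongly it was expressed or in which cells, and they have no replicates. No transcript sequences were at hand, so it was not tested whether the listed transcripts of a gene are different isoforms or near-copies of each other. Whether the catalogue was built from the same tissue and stage is not given in the sources used here.

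Most genes of the nervous system are spliced in more than one way, and neurons use a set of RNA-binding proteins to choose between exons. CELF proteins bind uridine- and guanosine-rich RNA through RNA recognition motifs and also act on mRNA stability and translation. RBFOX proteins bind the element UGCAUG next to regulated exons, and RBFOX3 is the antigen NeuN, a standard marker of mature neurons. NOVA proteins bind YCAY repeats (Y being C or U) through KH domains and are known in mammals as neuronal regulators of exons in synaptic genes. Several of these genes are themselves alternatively spliced in mammals.

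The 10 genes together had 564 transcripts, with a median of 40.5 per gene against 6 for the 16761 other gene names. Single genes ranged from 10 transcripts (RBFOX2) to 253 (CELF2), a 25.3-fold range. All 10 lay above the median of the other names, and 7 lay above their 90th percentile of 29 transcripts. At least 20 transcripts were listed for 8 of the 10 genes, against 17.4% of the other names. RBFOX2 and NOVA2 were the exceptions. Without CELF2 the median of the remaining genes was 36, and without all 5 CELF genes it was 21. With TRINITY_ transcripts alone the median was 3, against 1 for the other names. CELF1, CELF3, CELF5 and NOVA2 had only 1 TRINITY_ transcript each, a number reached by 98.8% of the other names.

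Families differed in their numbers of transcripts. The 5 CELF genes had a median of 45 transcripts, the 3 RBFOX genes a median of 32 and the 2 NOVA genes a median of 16. The ranges of the CELF and RBFOX genes overlapped, since RBFOX1 with 46 transcripts stood above 3 of the CELF genes. Both NOVA genes stood below every CELF gene, but NOVA1 stood above RBFOX2. CELF2 alone held 57.0% of the transcripts of the CELF genes, and RBFOX1 held 52.3% of those of the RBFOX genes. With CELF6, a further CELF gene, counted too, the share of CELF2 was 51.6%. NOVA1 held 65.6% of the transcripts of the NOVA genes, but the larger of 2 unequal genes always holds more than 50%.

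**Figure D1:**
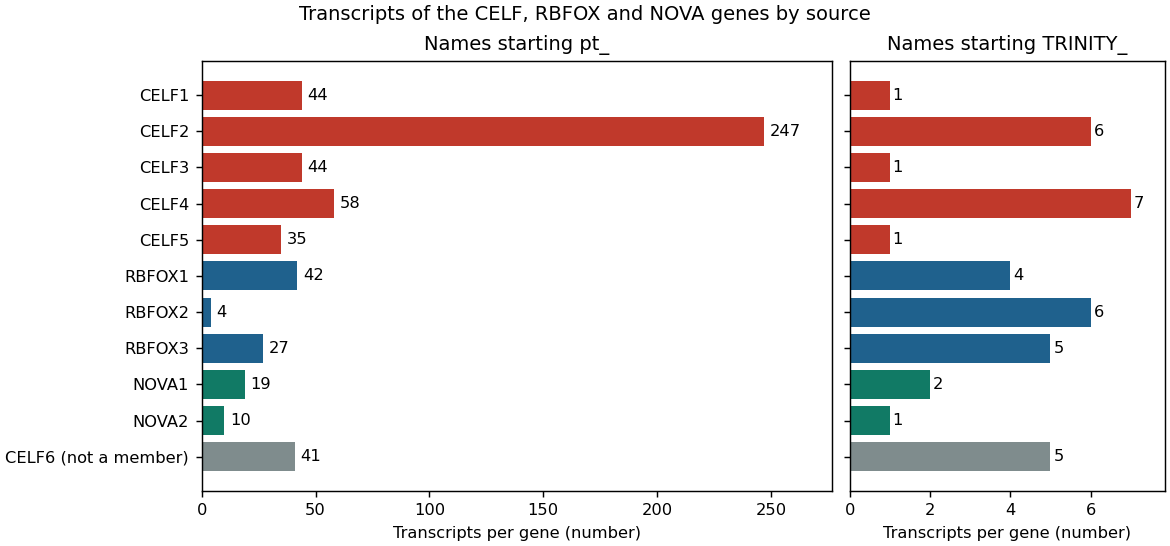
Number of transcripts per gene (x axis) for the 10 genes and CELF6, with names starting pt_ on the left and names starting TRINITY_ on the right; each bar is the count of 1 gene and the 2 x axes have different scales. CELF2 stands out on the left with 247 transcripts, whereas on the right CELF4 has 7 and CELF2 and RBFOX2 have 6 each.

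The catalogue held transcripts from 2 sources, recognised by their names. Names starting with pt_ contain HQ_transcript, the form that long-read transcript software writes, and numbered 160687 rows. Names starting with TRINITY_, written by a short-read assembler, numbered 33716 rows, and 3 further rows were constructs.

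CELF1 and CELF2 are in mammals the broadly expressed members of their family, with roles in muscle, heart and brain. CELF2 had 247 pt_ and 6 TRINITY_ transcripts. Its total of 253 gave it rank 4 among all gene names, between GRIA2 (270 transcripts), which encodes an AMPA receptor subunit, and SPTBN1 (242 transcripts), which encodes a spectrin of the membrane skeleton. By pt_ transcripts it had rank 3, and 0.0119% of the other names had as many or more. CELF1 had 44 pt_ transcripts and 1 TRINITY_ transcript. Its total of 45 transcripts was reached by 4.22% of the other names. CELF2 thus stood far above every other gene of the 10, and CELF1 was level with CELF3.

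CELF3, CELF4 and CELF5 belong with CELF6 to the branch of the family that is mostly neural in mammals, and CELF4 is known in mice as a regulator of neuronal mRNAs whose loss causes seizures. CELF4 had 58 pt_ and 7 TRINITY_ transcripts, and 1.75% of the other names had as many as its total of 65 or more. CELF3 had the same numbers as CELF1, 44 pt_ transcripts and 1 TRINITY_ transcript. CELF5 had 35 pt_ transcripts and 1 TRINITY_ transcript. By pt_ transcripts CELF4 was first among the neural CELF genes, CELF6 included. CELF6, which is not among the 10 genes, had 41 pt_ and 5 TRINITY_ transcripts, a total of 46 that lies between those of CELF3 and CELF4. On the TRINITY_ side the order of CELF4 and CELF6 is uncertain, because 2 of the 7 transcripts of CELF4 belong to a locus that also carries CELF6. No other gene name started with CELF, RBFOX or NOVA.

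RBFOX1 and RBFOX3 are the members of their family most tied to neurons, RBFOX1 being also a muscle and heart gene, and RBFOX2 is found in many tissues. RBFOX1 had 42 pt_ and 4 TRINITY_ transcripts. RBFOX3 had 27 pt_ and 5 TRINITY_ transcripts. RBFOX2 had 4 pt_ and 6 TRINITY_ transcripts, the lowest total of the 10 genes. Its low total came from the pt_ side: 49.8% of the other names had at least 4 pt_ transcripts, whereas 3.66% had at least 6 TRINITY_ transcripts. By TRINITY_ transcripts alone RBFOX2 was therefore level with CELF2 and above RBFOX1 and RBFOX3.

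NOVA1 and NOVA2 were first found as targets of antibodies in a human neurological disorder that accompanies tumours, and in mice NOVA2 is the main form in the neocortex and NOVA1 in the hindbrain and spinal cord. NOVA1 had 19 pt_ and 2 TRINITY_ transcripts, a total reached by 16.3% of the other names. NOVA2 had 10 pt_ transcripts and 1 TRINITY_ transcript, a total of 11 reached by 32.3% of the other names. In this catalogue NOVA1 was thus listed with 1.91 times as many transcripts as NOVA2, and both were closer to the other names than any CELF gene was.

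**Figure D2:**
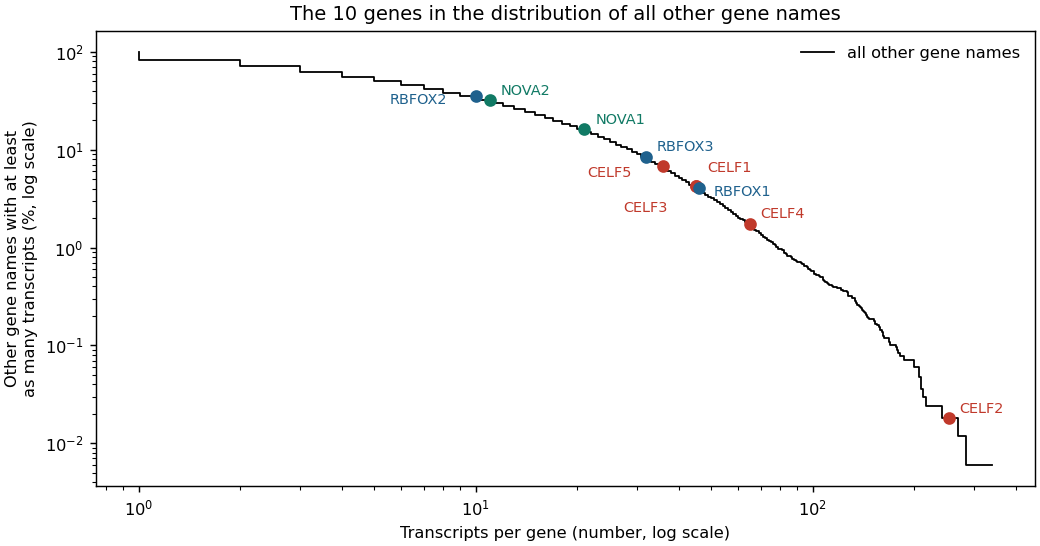
Share of the 16761 other gene names that have at least the given number of transcripts (black line, y axis in %, log scale) against the number of transcripts per gene (x axis, log scale); coloured points are the 10 genes. RBFOX2 and NOVA2 lie at 35.1% and 32.3% of the other names, 6 genes lie between 1.75% and 8.49%, and CELF2 lies at 0.0179%.

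Both sources contributed to all 10 genes, against 70.6% of the other names. At least 1 TRINITY_ transcript was listed for 98.8% of the other names, so the 70.6% mainly reflects whether a name had a pt_ transcript. The other names had fewer transcripts, a median of 6 against 40.5, so the 70.6% is not from names of like size. Of 68 other splicing factors found in the catalogue and described below, 64 had both sources. At least 2 transcripts of each source were listed for 6 genes, namely CELF2, CELF4, RBFOX1, RBFOX2, RBFOX3 and NOVA1, against 32.1% of the other names. TRINITY_ transcripts made up 34 of the 564 transcripts, or 6.03% (95% Wilson interval 4.35% to 8.31%), against 17.4% of the transcripts of all other names. Transcripts of a gene are not independent, so this interval is a scale and no test. Among other names that also had both sources the share was 13.7%. Single genes ranged from 2.22% in CELF1 and CELF3 to 15.6% in RBFOX3, with RBFOX2 above them. A share below 17.4% was thus found for 9 of the 10 genes, against 35.1% of the other names and 78.5% of the other names with at least 10 transcripts, so it is usual for names with this many transcripts.

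RBFOX2 went the other way, with 60.0% of its transcripts named TRINITY_ (95% Wilson interval 31.3% to 83.2%, from 10 transcripts). It was the 1 gene of the 10 with more TRINITY_ than pt_ transcripts, a pattern of 34.8% of the other names. That background is made up largely of names with few transcripts: of the 5876 other names with at least 10 transcripts, 172 (2.93%) had more TRINITY_ than pt_ transcripts. RBFOX2 with its 10 transcripts stands at the lower limit of that group. Names of about its size were not counted separately, so how rare its pattern is among them is not known. The pattern also rests on counting isoforms. The 6 TRINITY_ transcripts of RBFOX2 lay in 3 assembled loci, so with each locus counted once it had fewer from TRINITY_ (3) than from pt_ (4). Of 15 older symbols of the CELF and RBFOX genes, including RBM9 for RBFOX2, A2BP1 for RBFOX1 and CUGBP2 for CELF2, 0 were listed as gene names.

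**Figure D3:**
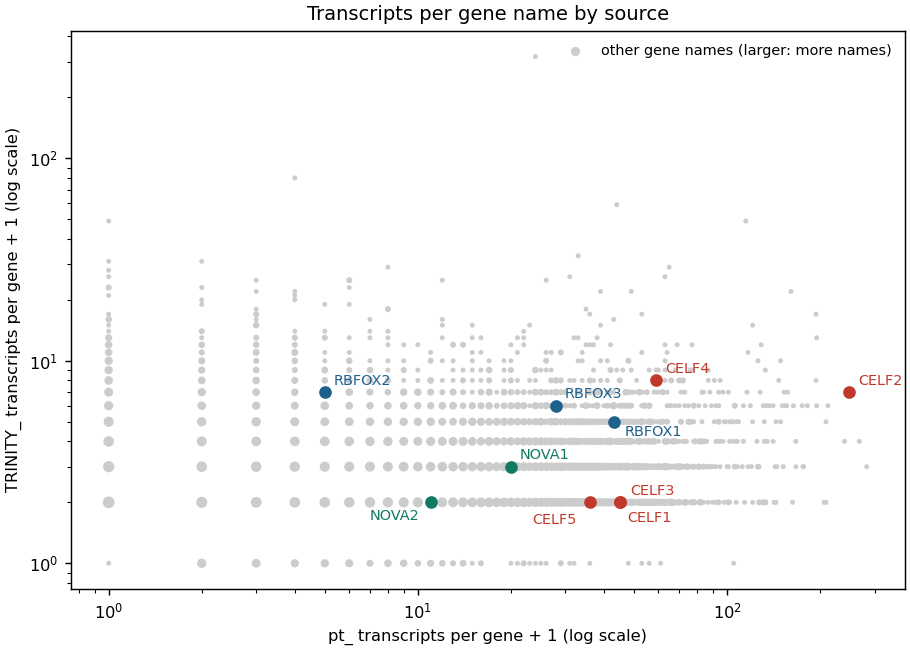
Number of TRINITY_ transcripts + 1 (y axis, log scale) against the number of pt_ transcripts + 1 (x axis, log scale) for every gene name; grey points are other names, larger where more names share a position, and coloured points are the 10 genes. CELF1, CELF3, CELF5 and NOVA2 lie on the line of a single TRINITY_ transcript, and RBFOX2 lies apart on the left with 4 pt_ and 6 TRINITY_ transcripts.

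Gene names with a similar make-up were sought by distance in log2(pt_ transcripts + 1) and log2(TRINITY_ transcripts + 1), which compares 2 numbers per name and carries little information for low counts. Nearest to CELF2 were EPB41L3 (211 pt_ and 5 TRINITY_ transcripts), SUGP2 (193 and 7) and NTRK2 (194 and 5). No name had the same pair of numbers as CELF2. RBFOX1 shared its numbers with RNF123 and TAF1, and the next name was C2CD5 with 43 pt_ and 4 TRINITY_ transcripts. For NOVA1 the measure did not single out any name, since 55 other names had the same pair of numbers, the first in the alphabet being ABCF3, ABCG1 and ACADVL.

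The TRINITY_ names also record how the assembler grouped its reads. A name gives the group of reads (called a read cluster here, such as TRINITY_DN300904_c0), the assembled locus within it (g) and the isoform (i). The 34 TRINITY_ transcripts of the 10 genes lay in 20 loci and 18 read clusters. CELF4 had 4 loci, CELF2 and RBFOX2 had 3 each, RBFOX1, RBFOX3 and NOVA1 had 2 each, and CELF1, CELF3, CELF5 and NOVA2 had 1 each. The median over the 10 genes was 2 loci, against 1 for the other names that had TRINITY_ transcripts. The TRINITY_ names stand in 3 separately sorted stretches, described under Other observations. Stretch 3 held a locus of 7 of the 10 genes, against 22.1% of the other names. The other names had fewer TRINITY_ transcripts, a median of 1 against 3, so the 22.1% is not from names of like size. It was not tested whether loci of a gene in different stretches are the same sequence assembled again, so the numbers of loci may be inflated.

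The neural CELF genes were joined to each other in these groups. Locus TRINITY_DN292764_c5_g1 carried isoforms 7 and 11 under CELF4 and isoform 8 under CELF6. Read cluster TRINITY_DN300904_c0 held a separate locus each for CELF4, CELF5 and CELF6. Read cluster TRINITY_DN161654_c4 held loci of CELF3 and CELF6. Each of CELF3, CELF4 and CELF5 thus shared a read cluster with another CELF gene, while the loci of CELF1 and CELF2 shared none with another gene name.

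Sharing of this kind was not frequent over all loci and read clusters. Of all 28058 loci, 2.23% held more than 1 gene name, as did 7.04% of all 25131 read clusters. A locus or read cluster with few listed transcripts has little room for 2 names, and those of like size were not compared. The locus shared by CELF4 and CELF6 stands in stretches 1 and 2. These stretches shared 780 loci, of which 623 had a gene name in common and the others did not. Among the 18 read clusters of the 10 genes, 3 held another CELF name, and 2 more held a gene of another kind. The latter were TM9SF3 beside RBFOX2 and RGS17 beside RBFOX3. Names alike apart from a closing number, as CELF4 and CELF5 are, met in 1.80% of all read clusters. In this count the number could carry a closing letter or be absent from 1 of the names. The 1.80% also covers genes without a relative of like name, and families with numbered names were not counted separately. Because CELF4 and CELF6 share a locus, the division of its 3 isoforms between these genes is uncertain.

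Isoform numbers were often missing from the catalogue. In 17 of the 20 loci of the 10 genes the highest isoform number was larger than the number of isoforms listed, against 46.2% of all loci. A locus with only 1 assembled isoform cannot miss a number, and loci with like isoform numbers were not compared. Missing numbers are seen in RBFOX3, with isoforms 17, 31 and 37 of locus TRINITY_DN306639_c7_g1 listed. RBFOX2 had isoforms 5, 16 and 26 of locus TRINITY_DN308223_c3_g1, and CELF2 had isoforms 1, 3, 9 and 13 of locus TRINITY_DN167575_c7_g2. The number of TRINITY_ transcripts of a gene is therefore the number that was listed under its name, and the criteria for listing are not given in the sources used here.

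Other splicing regulators gave a scale for these values. Of 70 genes in 8 lists, 68 were listed, with a median of 18 transcripts, and 31 had at least 20. The absent names were HNRNPF and HNRNPH2, which encode RNA-binding hnRNP proteins. CELF2 exceeded all 68, and CELF4 was exceeded by 5: MBNL2 (121 transcripts), QKI (96), SRSF5 (74), TRA2B (70) and SF3B1 (70). RBFOX2 and NOVA2 were exceeded by 45 of the 68. The lists were drawn up from general knowledge of splicing.

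Among families with a known role in neurons, the ELAVL (Hu) proteins, which bind AU-rich RNA, had a median of 21 transcripts, from 7 for ELAVL4 to 36 for ELAVL3. Polypyrimidine tract binding proteins, whose switch from PTBP1 to PTBP2 accompanies neuronal differentiation in mammals, had a median of 38. PTBP1 had the most with 42, and PTBP3 had the fewest with 3. Muscleblind proteins, known as antagonists of CELF1 in mammalian muscle, had a median of 36, from 7 for MBNL3 to 121 for MBNL2. STAR proteins, which include QKI of glial cells, had a median of 29, from 15 for KHDRBS3 to 96 for QKI. SRRM proteins, of which SRRM4 is a neural activator of microexons, had the lowest median, 6.5, from 4 for SRRM4 to 12 for SRRM3.

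General splicing factors had lower medians than the CELF genes. SR proteins, activators that bind exons, had a median of 20 transcripts, from 1 for TRA2A to 74 for SRSF5. The hnRNP proteins had a median of 23, from 10 for HNRNPA1 to 57 for HNRNPL. Core factors of the spliceosome had a median of 11, from 3 for SF3A2 to 70 for SF3B1. A wide range within a family was therefore seen in these lists as well as in the CELF and RBFOX genes. The CELF median of 45 was above the median of each of the 8 lists. This did not hold for the other families. The RBFOX median of 32 was below those of the polypyrimidine tract binding proteins (38) and the muscleblind proteins (36). The NOVA median of 16 was above only those of the core factors (11) and the SRRM proteins (6.5).

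**Figure D4:**
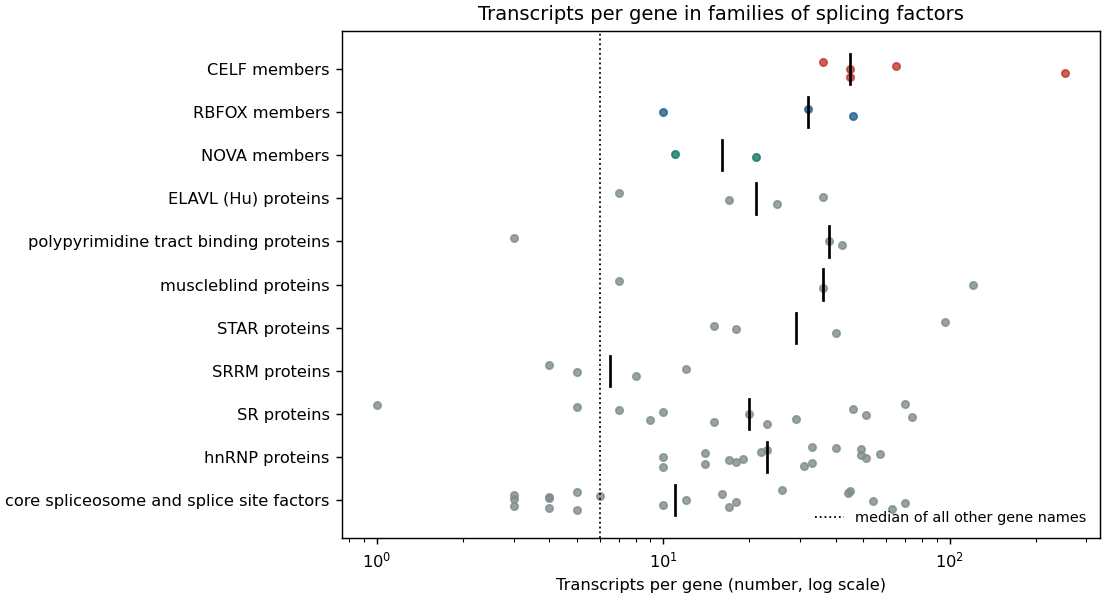
Transcripts per gene (x axis, log scale) for the CELF, RBFOX and NOVA genes (coloured) and for the genes of 8 lists of splicing factors (grey, absent genes not drawn); each point is 1 gene, each black bar the median of its row and the dotted line the median of all other gene names, 6. CELF2 with 253 transcripts lies to the right of every gene drawn, and MBNL2 with 121 comes next.

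Each pt_ transcript name ends in a number, up to 289998 for the 160687 transcripts listed. What sets this order is not given in the sources used here, so the position of a gene in it is given only as a description. Positions were expressed as a percentage of the way through the sorted numbers. A gene whose transcripts were spread evenly would have the middle 50% of them across a width of 50 percentage points. For the 4993 other names with at least 10 pt_ transcripts the median width was 26.5 points.

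Transcripts of a gene lay closer together than that in 8 of the 9 genes with at least 10 pt_ transcripts, RBFOX1 with a width of 27.7 points being the exception. As this cut is a median, as many of the other names lie below it as above. Of the other names, 42.7% were narrower than CELF2 and 27.4% narrower than CELF1. For CELF3, CELF4, CELF5 and RBFOX3 these shares were 11.2% to 16.9%. The narrowest were NOVA1 with 4.81 and NOVA2 with 4.91 points, each wider than 1.38% of the other names. They were also the 2 with the fewest pt_ transcripts of the 9, and among the 2479 other names with 10 to 19 pt_ transcripts the median width was 21.7 points and 2.42% were narrower than either. These 2 paralogs lay at opposite ends, with NOVA1 at a median position of 9.43% and NOVA2 at 92.2%. Among the CELF genes, CELF3 (median position 8.60%) and CELF5 (13.1%) lay early, CELF2 (50.3%) and CELF1 (63.2%) in the middle, and CELF4 (81.6%) late. RBFOX1 had a median position of 36.9% and RBFOX3 of 65.2%. For the other names the middle 50% of median positions ran from 31.2% to 67.0%. CELF3, CELF4, CELF5, NOVA1 and NOVA2 lay outside this range, as do 50% of the other names by definition. CELF6 differed from all of the genes above in its spread. Of its 41 pt_ transcripts, 15 lay in the first 25% of the numbering and 20 in the last 25%. This gave a width of 83.2 points.

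**Figure D5:**
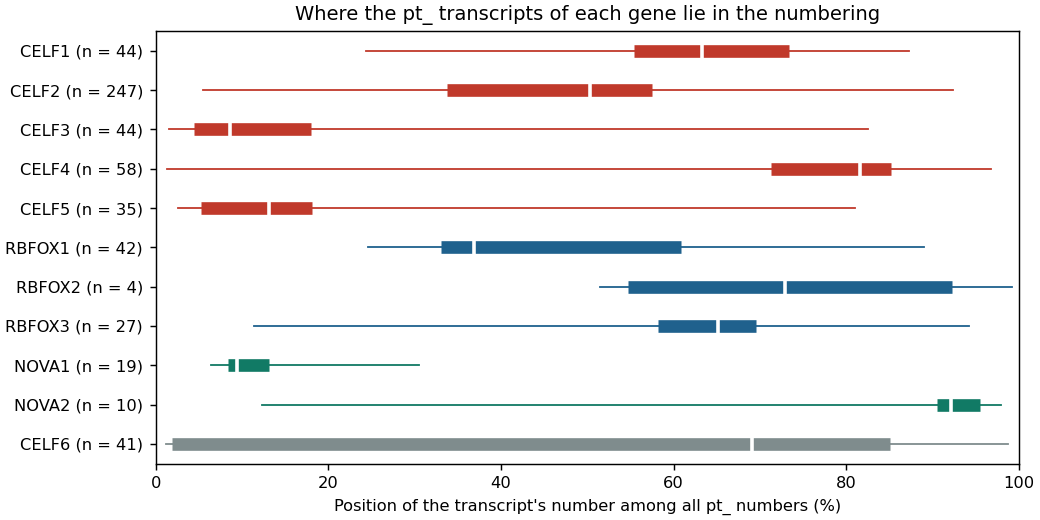
Position of the pt_ transcripts of each gene among all pt_ numbers (x axis, %), with thin lines from the lowest to the highest, thick bars for the middle 50% and white marks at the median; n is the number of pt_ transcripts. NOVA1 (median 9.43%) and NOVA2 (92.2%) occupy narrow and opposite places, and the bar of CELF6 spans 83.2 percentage points.

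The names themselves were clean for these genes. Each was spelled in 1 way, 0 of their rows were repeated, and 0 of their transcripts were also listed under another gene name. This was usual in the catalogue, where 17112 names as written folded to 16771. The share of other names with at least 20 transcripts stayed at 17.4% without repeated rows. It was also 17.4% without transcripts listed under several gene names. The symbols of 9 of the 10 genes are in the RefSeq gene table of the species (assembly aPleWal1.hap1), NOVA2 being the one not matched by name, against 74.2% of the other names. In that table, and among protein-coding genes with a symbol, CELF1 stands between PTPMT1 and RAPSN, and CELF2 between USP6NL and GATA3. RBFOX3 stands between ENGASE and ENPP7, and RBFOX1 between EEF2KMT and TMEM114. Positions are not given, because the genome build behind the catalogue is not named.

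Markers of brain cells were all listed as gene names in the catalogue: 8 of 8 for neurons, with RBFOX3 among them, 6 of 6 for radial glia, and 8 of 8 for microglia, oligodendrocytes, endothelium and mesenchyme. Presence was usual, since 68 of the 70 splicing factors were listed too. The median numbers of transcripts of the markers were 38.5, 22 and 9.5 in this order, with overlapping ranges. Neuron markers ran from 6 (STMN2) to 209 (SYT1) and radial glia markers from 8 (GFAP) to 131 (SLC1A3). The other markers ran from 2 (AIF1) to 86 (COL1A1). Presence of a name does not show that any library contained the cell type.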

How the data were processed

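The deposited table of transcript and gene names was read by splitting each line on white space, and per the file headers its columns are transcript and gene. It holds names and no measured values, so the depth of the libraries is unknown. Of its columns, 0 hold values of a sample. Neither header nor labels say how the transcripts were assembled or given gene names. The submitters' processing notes name Salmon 1.6.0 and alevin. The second deposited table, of multiplexing oligos, was not used.

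Gene names were folded to upper case and every row was counted, by source from the start of the transcript name. Loci and read clusters were taken from the TRINITY_ names. The counting was tested on a made-up table of known content. The genes, the lists and the threshold of 20 transcripts were chosen with earlier results of these data known, so no test was made. The genes named in the text are the 10 genes, all others of these families, names sharing a locus or read cluster with them, the 3 names nearest in numbers, the neighbours in order of a gene among the top 20, and the extremes and absences of each list. Genes exceeding CELF4, examples of isoform numbers, older symbols and RefSeq neighbours were chosen after their values were seen, as was the position in the pt_ numbering. RefSeq was used for names and neighbours. Intervals are 95% Wilson intervals. Counts were made in Python 3.11.15 with numpy 2.4.6, intervals with scipy 1.17.1, and figures with matplotlib 3.10.9.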

Additional observations from a re-analysis of the deposited data

How the results depend on the processing

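Of 26 alternatives, 17 left a value within 1.5 times of a count or median, or within the Wilson interval of a share, and 9 did not. Some of the 17 were fixed in advance, because the names of these genes were clean. Gene names as written, distinct transcript names and leaving out transcripts with several gene names could not change a value of these genes. The number 17 therefore overstates how stable the values were. The median of 40.5 transcripts per gene became 3 with TRINITY_ transcripts alone (against 1 for other names) and 21 without the CELF genes. At least 50 transcripts were listed for 2 genes, against 3.29% of other names, where 8 had at least 20. The background of 17.4% with at least 20 transcripts was 20.4% among RefSeq symbols and 24.4% among names with both sources. With at least 2 transcripts of each source required, 6 genes and 32.1% of other names had both. The TRINITY_ share of 6.03% was 8.89% as the median over genes, against a median of 33.3% over the other names, most of which have fewer transcripts. The share was 9.003% without CELF2. With TRINITY_ transcripts counted once per locus and every pt_ transcript still counted, the share was 3.64%, against 15.2% for other names counted in that way. Counting CELF6 and leaving out CELF2 in the median were chosen after seeing the data. No paired analysis was possible because the table holds no values per library, and no library could be left out for the same reason. The identity of the proteins within families was not run, since no protein sequences were at hand. No depth is known, so no limit of detection is given for a name that is absent.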

Other observations

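The TRINITY_ rows stood in 3 separately sorted stretches of 22685, 5687 and 5344 rows. Stretches 1 and 2 shared 780 loci, of which 623 had a gene name in common. Stretches 1 and 3 shared 3 loci, of which 0 had a gene name in common, and stretches 2 and 3 shared 0. It was not tested whether stretch 3 has a numbering of its own. A locus in stretch 3 was listed for 7 of the 10 genes, against 22.1% of the other names, which had fewer TRINITY_ transcripts. CELF5 and the NOVA genes had none there. At the shared locus TRINITY_DN292764_c5_g1, the CELF4 isoforms stood in stretch 1 and the CELF6 isoform in stretch 2.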
